A study of Saccharomyces cerevisiae with 8 samples.

Results

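Cutting of polyadenylated RNA at ACA sites was compared between IME4 deletion and wild-type yeast after pulldown with an antibody against N6-methyladenosine (m6A). The values compared were those of every site with a measurement in all 4 pulldown (IP) libraries, without requiring a value in the libraries made before pulldown (input). A position, chromosome and strand was counted once, which gave 19517 tested sites of the 76330 distinct sites listed (25.6%), in 4113 gene models. A site is written as its gene and its distance in nt from the start of its gene model, in the direction of transcription (AIP5 +404). Coordinates follow the deposited table, and the sources used here do not name its genome build.

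The cells were diploid yeast of the SK1 background, grown in YPD at 30 °C and induced to enter meiosis, with 2 biological replicates in each of 4 groups (8 libraries). The first group, called KO here, had both copies of IME4 replaced (ime4::HIS3/ime4::HIS3), and the second, called WT, retained them. Both were MAT a/alpha diploids that carried lys2/lys2, ho::LYS2/ho::LYS2 and ndt80::LEU2/ndt80::LEU2, so NDT80, whose product drives exit from pachytene, was disrupted in WT as well as in KO. Each genotype had 2 IP libraries, and its 2 input libraries enter only 1 comparison below.

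MazF is a bacterial endoribonuclease that cuts RNA on the 5′ side of ACA, unless the first A is methylated to m6A. Ime4 is the methyltransferase that deposits m6A on yeast mRNA during entry into meiosis. A site that is methylated in WT would therefore be cut less in WT than in KO, and a higher value is read here as more cutting, a direction taken from the name of the quantity (cleavage efficiency) because the sources used here do not state it. All differences are KO minus WT on the scale of that fraction, which runs from near 0 to 1, so a positive difference means more cutting in KO.

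The libraries had 27723 and 37488 measured sites in KO and 33351 and 43581 in WT. Over the tested sites the medians were 0.664 and 0.661 in KO and 0.669 and 0.669 in WT, and the highest value of a library was shared by 2.10% to 5.55% of them. Pearson's r across the tested sites was 0.954 between the KO replicates and 0.943 between the WT replicates, against 0.650 to 0.671 between a KO and a WT library. The table holds fractions and no counts, and the sequencing depth at a site is therefore unknown. IME4 had 27 listed sites, of which 0 and 0 were measured in KO and 16 and 24 in WT, as the labels have it. HIS3 and LEU2 had no line in the table used here, and NDT80 had 3 listed sites, with 0 and 0 measured in KO and 1 and 0 in WT.

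Over all distinct sites, the measured shares were 36.3% and 49.1% in KO and 43.7% and 57.1% in WT, so fewer sites of any kind were measured in KO. Markers of early meiosis, such as HOP1 and REC8, were measured in every library. All 21 genes of the list had values, at 69.4% and 77.5% of their 382 listed sites in KO and 84.6% and 92.4% in WT. Of 116 sites in genes of haploid and mating cells, 21 and 37 were measured in KO (18.1% and 31.9%, in 7 and 11 genes). In WT these were 51 and 51 (44.0% each, in 14 and 13 genes). STE2, GPA1 and BAR1, which mark haploid cells, had no measured site in any of the 4 libraries, while AXL1, FUS3, MF(ALPHA)1, MFA1, MFA2, RME1 and STE4 had measured sites in all 4. Sites of 18 regulators of G1 and S phase were measured at 89 and 119 of 208 positions in KO (42.8% and 57.2%). In WT they were measured at 115 and 133 (55.3% and 63.9%). In bulk RNA, fewer cells of a type and less RNA per cell cannot be told apart, and the part of such differences in the results below was not tested.

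Deletion of IME4 went with differences in both directions. Of the 19517 tested sites, 6388 (32.7%) passed an adjusted p of 0.05 in limma, 2757 higher in KO (14.1%) and 3631 lower in KO (18.6%). Sites with less cutting in KO were the more numerous at this threshold, and sites with more cutting in KO had the larger differences. The order of the counts depended on the threshold: at a limma adjusted p of 0.01, 1241 sites were higher and 944 lower in KO. The median difference was 0.393 among the sites higher in KO and -0.326 among those lower in KO, against -0.00848 over all tested sites. Differences of 0.5 or more were found at 989 sites higher in KO (5.07%) and 539 lower in KO (2.76%). The values of the KO and WT libraries did not overlap at 14119 sites (72.3%), 6409 with KO above WT (32.8%) and 7710 with KO below WT (39.5%).

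The sites higher in KO had a median efficiency of 0.886 in KO and 0.388 in WT. Of these 2757 sites, 1205 (43.7%) reached 0.9 or above in KO, against 22.7% of all tested sites. A call of higher in KO itself favours high KO values. The sites lower in KO had a median of 0.398 in KO and 0.831 in WT. A change over almost the whole scale was seen mainly in 1 direction, with 92 sites at 0.9 or above in KO and below 0.1 in WT, against 9 sites below 0.1 in KO and at 0.9 or above in WT. Sites at these ends of the scale were selected by level and not tested as a group.

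The calls rest on few libraries. Without WT IP replicate 2, limma called 0 sites, with a lowest adjusted p of 0.0541 and 7374 sites at an unadjusted p under 0.05, although all 6388 called sites kept their sign; the other 3 leave-outs called 1055 to 1265 sites higher and 598 to 1349 sites lower in KO, the fewest without WT IP replicate 1. An exact test of a single site with 2 libraries against 2 cannot give a two-sided p below 0.333, so each adjusted p here draws on the spread over all sites.

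**Figure D1:**
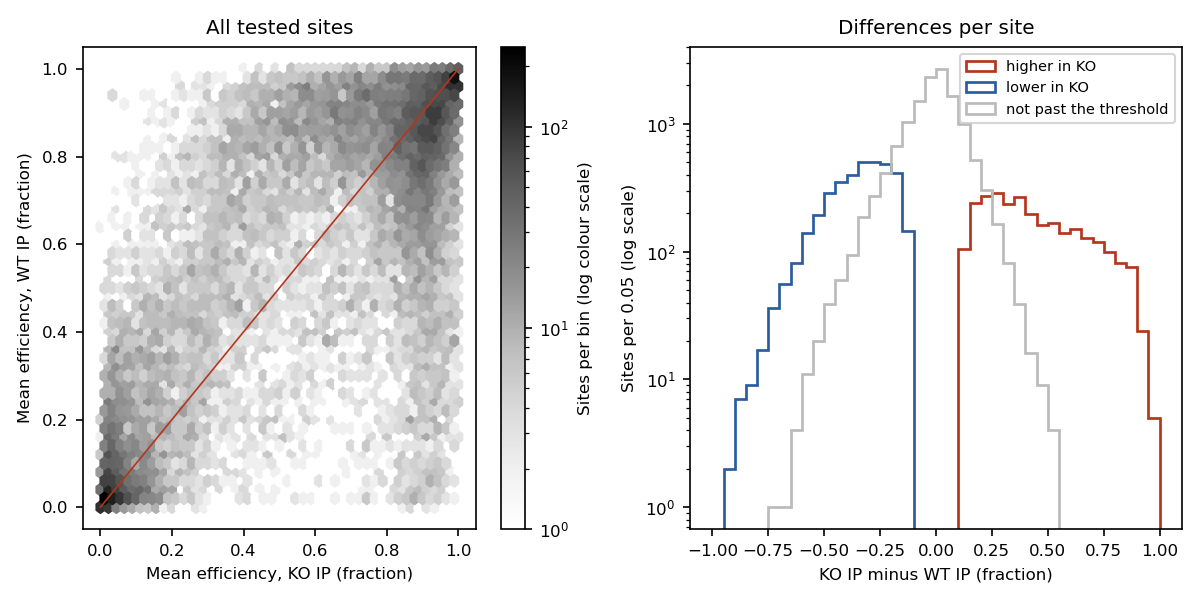
Left, mean cleavage efficiency (fraction) of the 19517 tested sites in KO IP (horizontal axis) and WT IP (vertical axis), as sites per hexagonal bin on a log colour scale, with a line at equal values. Right, histogram of KO IP minus WT IP (fraction, bins of 0.05, log vertical axis) for the 2757 sites higher in KO, the 3631 lower in KO and the 13129 that did not pass the threshold; the sites higher in KO reach further from 0.

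The sites with the largest gain of cutting in KO lay in AIP5, MAK5, PIM1 and SCC2. The ranking took sites past the threshold, with groups that did not overlap, with no IP value at 0.99 or above, and 1 per gene. AIP5 +404, in a gene for an actin assembly factor, lay on the minus strand of chromosome 6 at position 182175. Its efficiency was 0.967 and 0.982 in KO, against 0.0291 and 0.0112 in WT. The site was almost fully cut in both KO libraries and almost uncut in both WT libraries, a difference of 0.955 ± 0.0279 (SE, n = 2 each, limma adjusted p = 0.00352).

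MAK5 +2279, in the gene for an RNA helicase of large ribosomal subunit assembly, was at position 517699 of chromosome 2 on the plus strand. It had 0.966 and 0.969 in KO and 0.0300 and 0.0336 in WT, a difference of 0.936 ± 0.0266. PIM1 +2782, in the gene for the mitochondrial Lon protease, had 0.964 and 0.930 in KO and 0.0127 and 0.0173 in WT, a difference of 0.932 ± 0.0293. As at AIP5 +404, the WT libraries were all near 0. SCC2 +2618, in the gene for the subunit that loads cohesin onto chromosomes, had 0.9002 and 0.970 in KO and 0.0136 and 0.00764 in WT. SLM2 +1996, the last listed site of a gene for a TORC2 effector at the plasma membrane, had 0.977 and 0.871 in KO and 0.00647 and 0.00482 in WT. These 2 differences were 0.924 ± 0.0370 and 0.918 ± 0.0472.

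RPN9 +616, in the gene for a subunit of the proteasome lid, had 0.958 and 0.929 in KO and 0.0280 and 0.0315 in WT. HFM1 +3881, in the gene for the meiotic DNA helicase also known as Mer3, which acts in crossover formation, had 0.943 and 0.955 in KO and 0.0321 and 0.0416 in WT. SLT2 +1594, the last listed site of the gene for the mitogen-activated protein kinase of the cell wall integrity pathway, had 0.964 and 0.938 in KO and 0.0515 and 0.0282 in WT. In each of the 3, both KO libraries were above 0.9 and no WT library exceeded 0.0515, and the differences were 0.914 ± 0.0287, 0.912 ± 0.0272 and 0.911 ± 0.0295.

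The ranking went on with FKH2 +2557, in the gene for a forkhead transcription factor of G2 and M genes (0.911 ± 0.0278), and SSD1 +4010, in that for an mRNA-binding translational repressor (0.911 ± 0.0271). It closed with SSL2 +2841, the last listed site of the gene for the TFIIH helicase (0.911 ± 0.0270), and NPA3 +1365, in a gene needed for the nuclear import of RNA polymerase II (0.908 ± 0.0287). In all 12 the adjusted p was 0.00352 to 0.00371.

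The largest loss of cutting in KO was ranked in the same way and led by CRC1, YBR137W and RRP14. CRC1 +414, in the gene for the mitochondrial carnitine carrier, at position 515830 on the minus strand of chromosome 15, had 0.0143 and 0.0441 in KO and 0.935 and 0.926 in WT. Here the KO libraries were nearly uncut and the WT libraries nearly fully cut, a difference of -0.902 ± 0.0289 (SE, n = 2 each, limma adjusted p = 0.00352). YBR137W +487 had 0.0235 and 0.116 in KO and 0.959 and 0.956 in WT, a difference of -0.888 ± 0.0431. RRP14 +989, in a gene of ribosome assembly, had 0.0207 and 0.0660 in KO and 0.920 and 0.923 in WT, a difference of -0.878 ± 0.0314.

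GRX6 +193, in the gene for a glutaredoxin of the secretory pathway, had 0.00845 and 0.0140 in KO and 0.875 and 0.866 in WT, a difference of -0.859 ± 0.0269. SRM1 +1499, in the gene for the nucleotide exchange factor of Ran, had 0.0732 and 0.0678 in KO and 0.867 and 0.976 in WT, a difference of -0.851 ± 0.0482. Both genes had KO libraries below 0.1. ADP1 +3214 in a gene for an ABC transporter, LRS4 +784 in the gene for a monopolin subunit, and AIP5 +1387 differed by -0.849 ± 0.0388, -0.841 ± 0.0409 and -0.828 ± 0.0509. AIP5 thus stood in the ranking in both directions. The adjusted p of these 8 sites was 0.00352 to 0.00428, and AIP5 +1387 was not past the threshold without WT IP replicate 1.

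**Figure D2:**
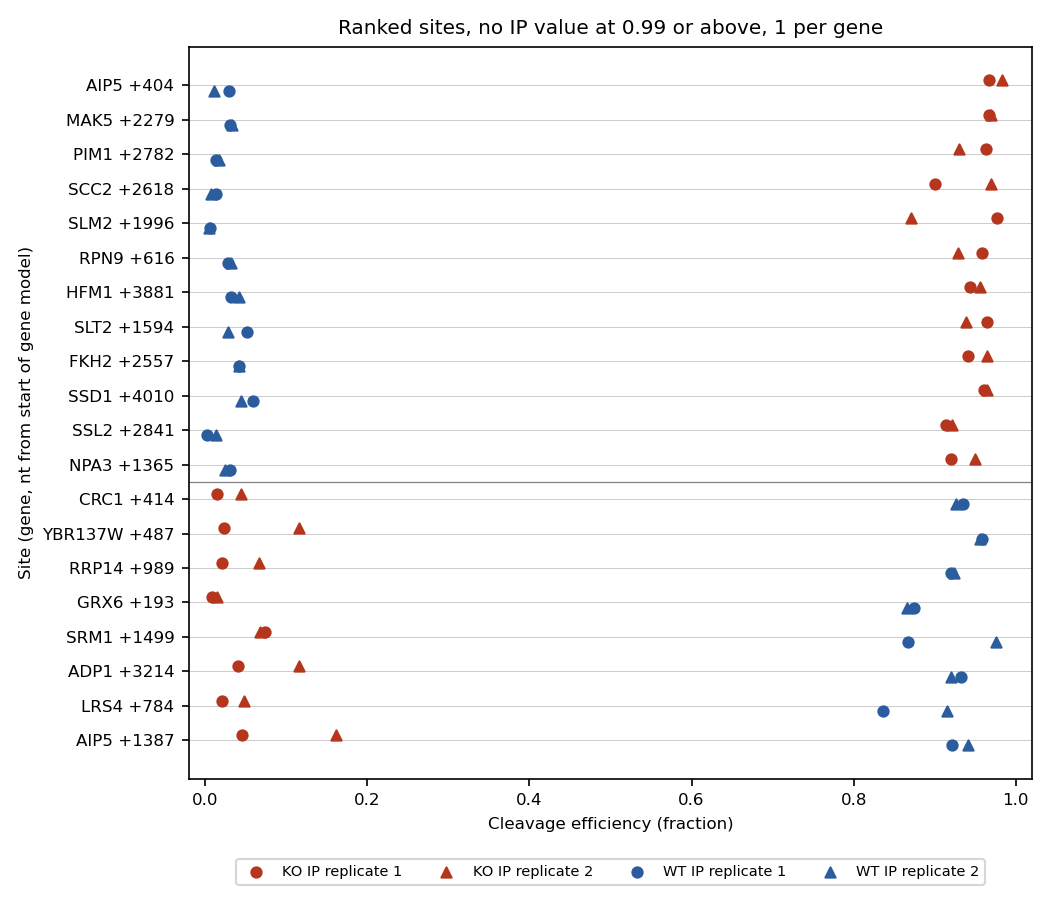
Cleavage efficiency (fraction, horizontal axis) of the 12 sites ranked highest and the 8 ranked lowest by KO minus WT, past the threshold, with no IP value at 0.99 or above and at most 1 per gene and direction. KO replicates are red and WT replicates blue, with a circle for replicate 1 and a triangle for replicate 2; the KO points lie between 0.871 and 0.982 above the line and between 0.00845 and 0.161 below it, where WT points lie on the other side of the scale.

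Requiring the input columns would have left out 2143 of the tested sites. Of these, 324 were higher in KO (15.1%) and 381 lower in KO (17.8%), beside 2433 and 3250 of the 17374 sites measured in all 8 libraries. AIP5 +404, MAK5 +2279, SLM2 +1996 and FKH2 +2557 belong to them. LAG2 +1364, in a gene for a regulator of SCF ubiquitin ligases, had 0.982 and 0.935 in KO and 0.0866 and 0.0381 in WT. SIR2 +1563, in the gene for the histone deacetylase of silenced chromatin, had 0.980 and 0.938 in KO and 0.110 and 0.0423 in WT. The libraries of KO and WT were far apart at both, with differences of 0.896 ± 0.0365 and 0.883 ± 0.0396.

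UFO1 +1929, in the gene for an F-box protein, and MYO2 +3100, in the gene for the class V myosin that carries secretory vesicles, were higher in KO by 0.877 ± 0.0275 and 0.877 ± 0.0442. Lower in KO were PRP5 +632, in the gene for a spliceosomal RNA helicase (-0.763 ± 0.0457), and MATALPHA2 +185, in the gene for the alpha2 repressor of mating-type genes (-0.762 ± 0.0441). TBS1 +3239, in the gene for a putative zinc cluster transcription factor, had 0.194 and 0.0834 in KO and 0.878 and 0.921 in WT (-0.761 ± 0.0512), and was not past the threshold without WT IP replicate 1. YNL284C-B +5259, in a Ty retrotransposon, had 0.0520 and 0.129 in KO and 0.885 and 0.908 in WT. Near-identical copies of this element exist, so which copy gave its reads is uncertain. MATALPHA2 likewise has a copy at the silent mating-type locus HML, so its reads are uncertain too. All 8 of these sites had an adjusted p of 0.00352 to 0.00483.

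Single genes often held sites of both directions. Of the 4113 gene models, 699 had called sites only higher in KO, 969 only lower in KO, 1163 both and 1282 none. Among the 445 models with 10 or more tested sites, 357 (80.2%) had both directions and 4 had no called site. Over all tested sites 14.1% were higher and 18.6% lower in KO. At those shares alone, a model with many tested sites would often hold both directions, and a departure from this was not tested. Of the 880 genes with a site higher in KO by 0.5 or more, 782 had exactly 1, 90 had 2 and 8 had 3 or more. Such sites were 5.07% of all tested sites, and the models had a median of 4 tested sites. At that share 1 per gene would be the usual case, and a departure from this was not tested. For sites lower in KO by 0.5 or more (2.76% of all tested sites), 448 of 491 genes had exactly 1, and 169 genes had at least 1 of each kind.

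AIP5 had the most tested sites, 32, with 7 higher and 11 lower in KO. Its high sites were +404, +712, +1211, +2587, +2728, +3067 and +3764, and they were interspersed along the transcript with the low ones. AIP5 +2587 had 0.898 and 0.933 in KO and 0.294 and 0.242 in WT (0.647), and AIP5 +3067 had 0.935 and 0.951 in KO and 0.317 and 0.337 in WT (0.616). Between them, at AIP5 +2887, the order was the other way, with 0.729 and 0.736 in KO and 0.915 and 0.951 in WT (-0.200). Near the end of the gene AIP5 +3817 had 0.185 and 0.0948 in KO and 0.877 and 0.880 in WT (-0.739). Many of the smaller differences were not past the threshold without 1 library; +404, +2587, +3067, +341 and +3817 stayed past it under each leave-out other than that of WT IP replicate 2.

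HMG2, which encodes an HMG-CoA reductase of sterol synthesis, had 4 sites higher in KO by 0.5 or more among 11. HMG2 +2445 had 0.922 and 0.926 in KO and 0.0867 and 0.166 in WT (0.798 ± 0.0396). HMG2 +1971 had 0.967 and 0.968 in KO and 0.238 and 0.225 in WT (0.736), and HMG2 +491 had 0.845 and 0.830 in KO and 0.142 and 0.0716 in WT (0.731). Of the called sites of HMG2, +403 alone was lower in KO (-0.285), a call lost without any 1 of the 4 libraries. YGR130C, a component of eisosomes, had 4 such sites among 21, with 0.764 at +1669 the largest, and also a site lower in KO by 0.508 at +1826, a call lost without any 1 of the 4 libraries. UBA1, which encodes the ubiquitin-activating enzyme, had 4 among 16, led by UBA1 +2982, with 0.810 and 0.876 in KO and 0.00729 and 0.00716 in WT. Several of these large gains were less firm. The calls of HMG2 +1982, UBA1 +1798 and UBA1 +3013 were lost without either KO IP replicate. Those of UBA1 +3266 and YGR130C +2749 were lost without any 1 of the 4 libraries, and that of YGR130C +1368 without WT IP replicate 1.

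Genes with several large differences toward WT were AIP5, with 4, and ULP2, MRP8 and PRE6, with 3 each. ULP2 encodes a SUMO protease, and its sites +2924, +1420 and +2213 were lower in KO by 0.661, 0.651 and 0.563. In MRP8 the sites +677, +195 and +630 were lower in KO by 0.630, 0.611 and 0.528. Of these 6 sites, MRP8 +677 alone passed without each library other than WT IP replicate 2. PRE6 encodes a core subunit of the proteasome, and 7 of its 9 tested sites passed the threshold, 4 higher and 3 lower in KO. PRE6 +890 had 0.867 and 0.771 in KO and 0.0133 and 0.00977 in WT (0.807), while PRE6 +956, 66 nt downstream, had 0.323 and 0.240 in KO and 0.841 and 0.878 in WT (-0.578), a call lost without WT IP replicate 1. PRE6 +709, by contrast, was near 0 in all 4 libraries, 0.0118 and 0.0108 in KO and 0.0103 and 0.00390 in WT.

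**Figure D3:**
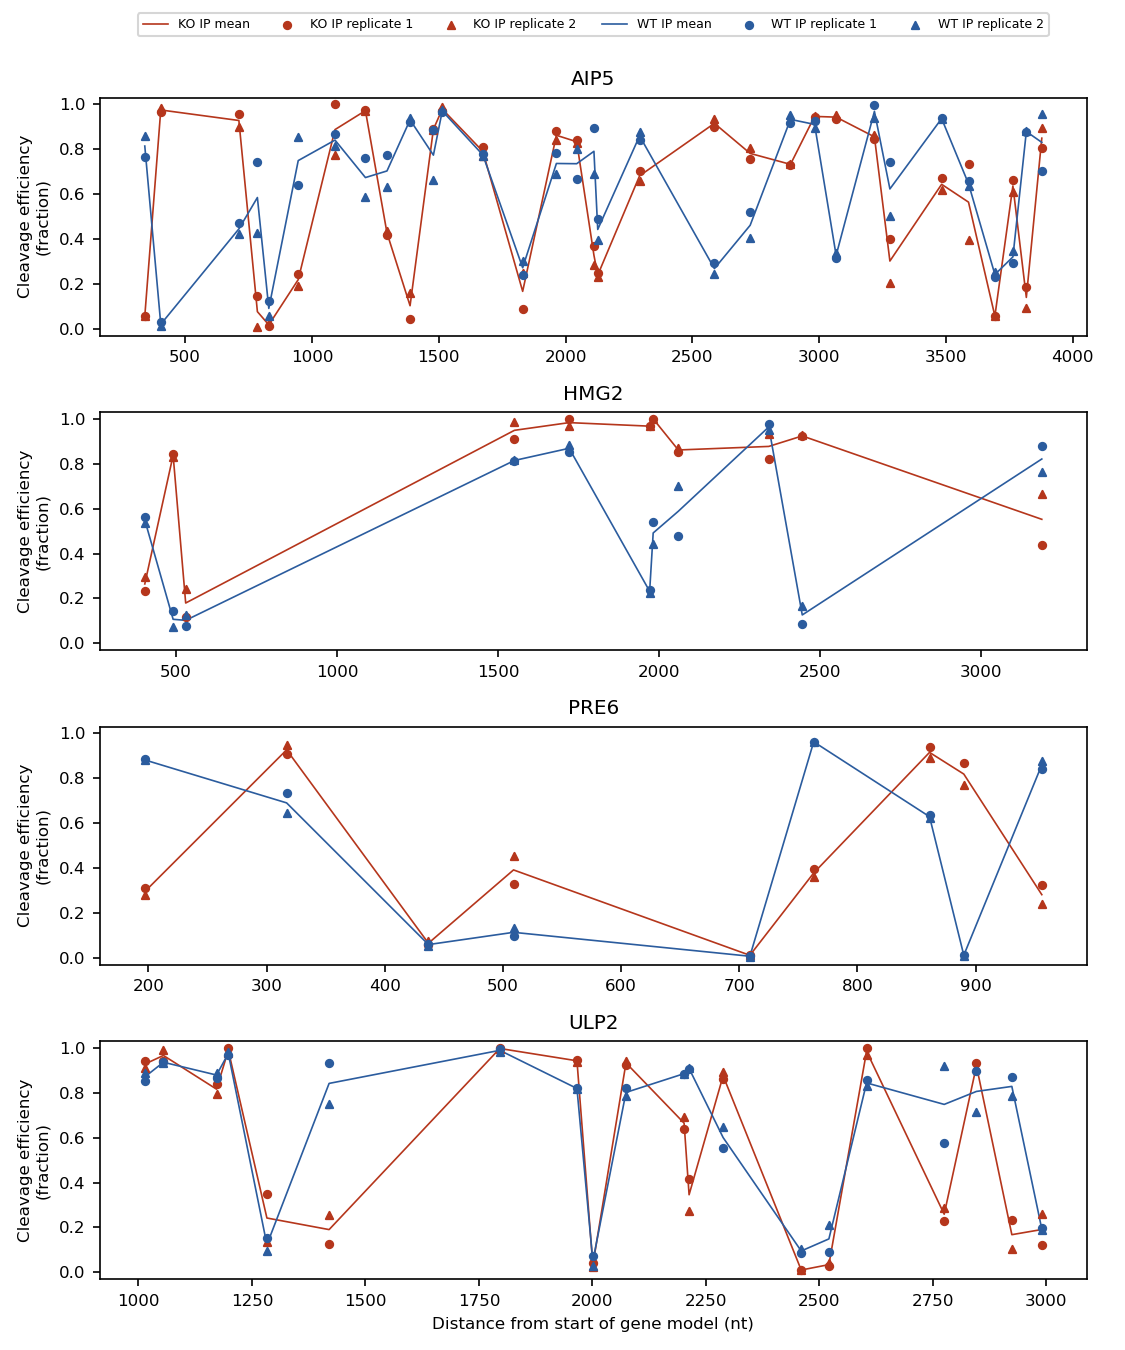
Cleavage efficiency (fraction) at each tested site of AIP5, HMG2, PRE6 and ULP2 against its distance in nt from the start of the gene model, with KO IP in red and WT IP in blue. Points are libraries (circle for replicate 1, triangle for replicate 2) and lines join the means of 2 libraries; the order of KO and WT turns several times within a gene, as between PRE6 +890 and PRE6 +956.

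Sites of 1 gene that lay 51 to 100 nt apart tended to differ in opposite directions. Among 793 pairs of called sites at that distance, 64.6% had opposite directions, against 21.2% of 208 pairs at 1 to 50 nt, 50.6% of 1254 pairs at up to 200 nt, 47.8% of 1693 pairs at up to 400 nt and 47.5% of 2568 at up to 1000 nt, each class starting where the one before it ended. Over all tested pairs, called or not, Pearson's r of the KO minus WT difference was 0.293 at 1 to 50 nt (1468 pairs) and -0.170 at 51 to 100 nt (5885 pairs), and between -0.0179 and 0.0123 beyond. In bins of 20 nt the lowest r was -0.213, at 61 to 80 nt, where 67.8% of called pairs were opposite. These are descriptions across sites: pairs share genes, sites and libraries.

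The same quantity for the difference between the 2 replicates of a genotype was smaller. At 51 to 100 nt it was -0.00554 for KO replicate 1 minus 2 and 0.0262 for WT replicate 1 minus 2, and at 1 to 50 nt it was 0.0949 and 0.111. The levels themselves showed the sign change too, with r of -0.135 between paired sites in KO and -0.0912 in WT at 51 to 100 nt, and 0.304 and 0.354 at 1 to 50 nt. The sources used here do not say how reads that span several sites enter the efficiency.

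Around the sites higher in KO by 0.5 or more, sites 51 to 100 nt upstream were lower in KO in 145 of 362 cases (40.1%), against 22.3% for the same distance from any tested site, and higher in KO in 6.91%, against 12.9%. At 51 to 100 nt downstream 79 of 256 (30.9%) were lower in KO, against 18.2%. Sites within 50 nt moved the same way: 17 of 43 upstream (39.5%) and 22 of 81 downstream (27.2%) were higher in KO, against 16.8% and 11.2%. Around the sites lower in KO by 0.5 or more the picture was turned round, with 92 of 223 sites at 51 to 100 nt downstream higher in KO (41.3%, against 16.7%). Beyond 200 nt the shares were near those around any site, such as 22.1% lower in KO upstream, against 20.5%.

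The pairs with the largest opposite differences within 200 nt are given as examples at single genes. They were chosen for their opposite directions, so they cannot show how often neighbouring sites differ in this way. The pairs of PUP2 and YNL284C-B, 170 and 125 nt apart, lay outside the class of 51 to 100 nt. LRS4 +784 had 0.0208 and 0.0483 in KO and 0.836 and 0.916 in WT (-0.841 ± 0.0409). LRS4 +863, 79 nt downstream, had 0.922 and 0.915 in KO and 0.0694 and 0.0692 in WT (0.849 ± 0.0267). The low KO site was thus followed by a high one, at positions 1332449 and 1332528 on the plus strand of chromosome 4. CDC3, which encodes a septin, had a difference of -0.775 ± 0.0609 at +1264 and 0.778 ± 0.0581 at +1335, 71 nt apart. PUP2, which encodes a core subunit of the proteasome, differed by -0.772 ± 0.0815 at +466 and 0.813 ± 0.0271 at +636, 170 nt apart. CDC3 +1264 and PUP2 +466 were not past the threshold without WT IP replicate 1.

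At TBS1 the high site came first, 0.835 ± 0.0297 at +3162, with -0.761 ± 0.0512 at +3239, 77 nt downstream. In AIP5, +341 (-0.758 ± 0.0435) lay 63 nt upstream of +404. It had 0.0554 and 0.0579 in KO and 0.768 and 0.861 in WT, the reverse of the neighbour. The Ty element YNL284C-B had -0.806 at +5259 and 0.835 at +5384, with the same uncertainty of copies as above.

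Sites near the 3′ end of the gene model were higher in KO more often. In the last of 5 equal parts of the model 1314 of 7203 tested sites (18.2%) were higher in KO, against 9.82% to 12.5% in each of the other parts, while the share lower in KO was 17.4%, against 17.9% to 20.1%. By distance to the last listed site the share higher in KO was 23.4% at that site itself (330 of 1410), 21.2% at other sites within 100 nt, 18.3% at up to 200 nt, 13.2% at up to 500 nt, 11.2% at up to 1000 nt and 11.6% beyond, in classes that do not overlap. At the last listed site 11.1% were lower in KO, and differences of 0.5 or more were 9.01% higher and 1.06% lower in KO. Its median efficiency was 0.825 in KO and 0.707 in WT, a median difference of 0.0555. SLM2 +1996, SLT2 +1594 and SSL2 +2841 are such last sites. No annotation of exons or UTRs for the table's build was used, and the last site has no neighbour downstream.

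**Figure D4:**
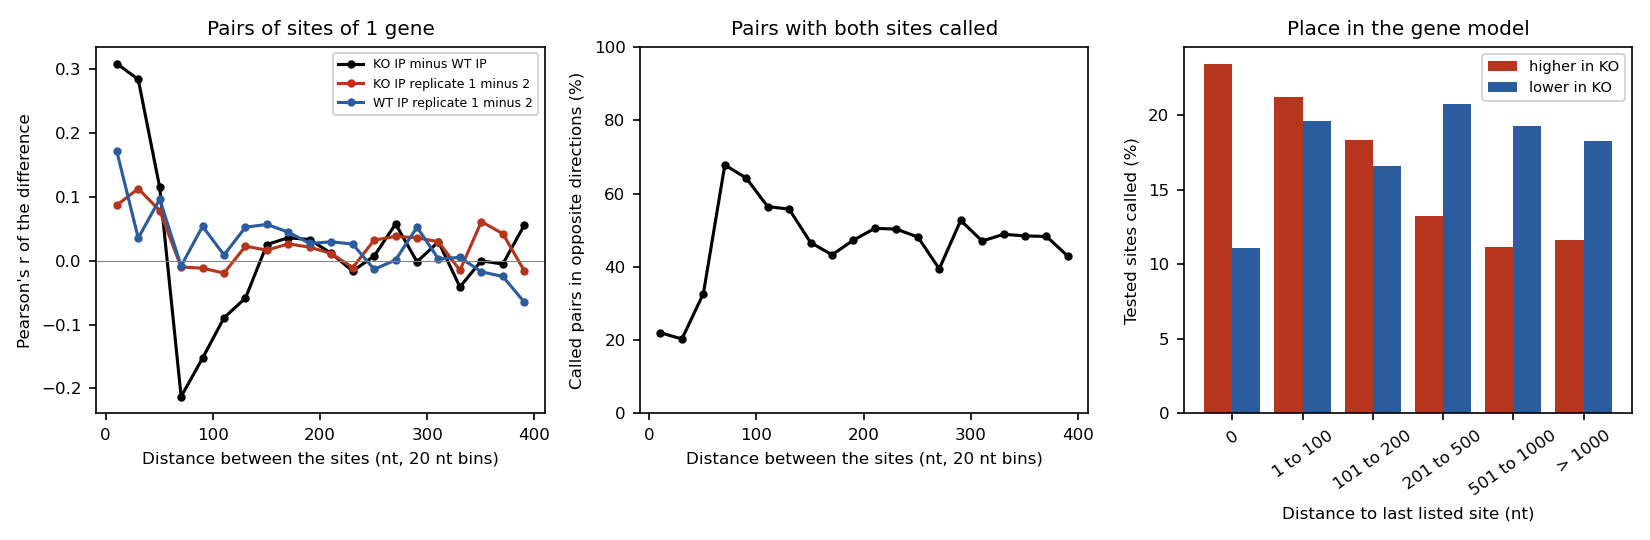
Left, Pearson's r across pairs of tested sites of 1 gene, by distance in bins of 20 nt, for KO IP minus WT IP (black) and for replicate 1 minus 2 in KO (red) and WT (blue); the black line reaches -0.213 at 61 to 80 nt. Middle, percent of pairs with both sites called that had opposite directions, highest at 67.8% in the same bin; right, percent of tested sites higher (red) and lower (blue) in KO by distance to the last listed site of the model.

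Averaged over a gene, cutting was lower in KO more often than higher. In the 1649 genes with at least 5 tested sites, the mean efficiency per library was fitted with limma. Of these, 741 passed the threshold (44.9%), 305 higher in KO (18.5%) and 436 lower in KO (26.4%). The median difference over the genes fitted was -0.0166. With median centring of the libraries the counts lay closer, at 338 higher and 395 lower in KO. SOL4, which encodes a 6-phosphogluconolactonase, averaged 0.735 and 0.814 in KO and 0.485 and 0.350 in WT over 5 sites (0.357 ± 0.0446, adjusted p = 0.00106). PTC1, which encodes a type 2C phosphatase, averaged 0.737 and 0.731 in KO and 0.430 and 0.433 in WT (0.303 ± 0.0211). Both rested on 2 sites each that were higher in KO by 0.5 or more. YBR096W (0.329), AIM6 (0.311), RPN9 (0.298) and MPT5, which encodes a Puf family RNA-binding protein (0.277), completed the genes with the largest rise.

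SRM1 averaged 0.365 and 0.324 in KO and 0.641 and 0.737 in WT over 5 sites (-0.345 ± 0.0337). YJR142W averaged 0.411 and 0.455 in KO and 0.684 and 0.815 in WT (-0.316 ± 0.0407), with 4 of its 5 sites lower in KO. GSY1, which encodes a glycogen synthase, averaged 0.350 and 0.291 in KO and 0.627 and 0.605 in WT (-0.296 ± 0.0262). The libraries of KO and WT did not overlap in any of the 3, as in 1251 of the 1649 genes fitted (75.9%), 730 of them lower in KO (44.3%). RRP14 (-0.288), RPL15B (-0.279) and HNM1, which encodes the choline transporter (-0.275), followed. RPL15B has a near-identical paralog in RPL15A, so its reads are uncertain. The adjusted p of these 12 genes was 0.000478 to 0.00116, and all 12 passed without each library in turn.

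Gene lists were described by counts, each to be read beside 14.1% of sites higher and 18.6% lower in KO over all tested sites. Counts from the gene fit stand beside 18.5% higher and 26.4% lower of all 1649 genes fitted. Early meiotic genes had 247 tested sites in 21 genes, with 34 higher (13.8%), 70 lower (28.3%) and 143 not past the threshold; their median difference was -0.0484. In the gene fit, 8 of 19 were lower and 1 higher in KO (26.4% and 18.5% over all genes fitted). MSH4, which encodes a MutS homolog of meiotic crossovers, averaged 0.422 and 0.417 in KO and 0.547 and 0.565 in WT over 22 sites, 9 of them lower in KO (-0.137 ± 0.0215). HOP1, of the chromosome axis (-0.140), and ZIP2, of the synapsis machinery (-0.127), were lower in KO as well, and MSH4, HOP1 and ZIP2 passed under each alternative that included them.

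RED1, REC8, REC104 and REC107 were also lower and SPO11, which encodes the nuclease that makes meiotic breaks, higher in KO (0.105), but each of these 5 was not past the threshold without 1 or more of the libraries, and REC104 turned to 0.0264 with the median over its sites. IME2, the kinase of meiotic entry, averaged 0.429 and 0.394 in KO and 0.476 and 0.432 in WT, a difference of -0.0427 that did not pass the threshold (limma adjusted p = 0.203). Single sites moved farther than the means. SPO22 +2665, in a gene of synapsis and crossovers, had 0.869 and 0.906 in KO and 0.123 and 0.0660 in WT (0.793 ± 0.0365), and ZIP1 +1573, in the gene for the transverse filament of the synaptonemal complex, had 0.2997 and 0.262 in KO and 0.896 and 0.961 in WT (-0.648 ± 0.0386). REC107 +1010 was lower in KO by 0.734, a call lost without either KO IP replicate.

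Haploid and mating genes gave only 18 tested sites, 3 higher and 3 lower in KO. AXL1 +3504, in the gene for the a-factor protease, had 0.928 and 0.927 in KO and 0.187 and 0.174 in WT (0.747 ± 0.0270), and FUS3 +1245, in that for the pheromone response kinase, differed by 0.689. MFA2 +277, an a-factor gene, was lower in KO by 0.744, with near copies in MFA1 leaving its reads uncertain and the call lost without WT IP replicate 1. LYS2, which the labels place at the HO locus, had 13 tested sites, 1 higher and 2 lower in KO. LYS2 +4359 had 0.938 and 0.884 in KO and 0.138 and 0.198 in WT.

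Regulators of G1 and S phase had few calls, 7 higher (10.8%) and 6 lower (9.23%) of 65 sites, and 0 of 7 genes passed in the gene fit. CDC53 +628, CLB5 +277 and CDC28 +770 were lower in KO by 0.579, 0.534 and 0.516, each lost without at least 1 library other than WT IP replicate 2. DNA replication genes had 19 sites in each direction of 141, and in the gene fit 3 of 15 genes were higher and 6 lower, beside 18.5% and 26.4% over all genes. POL2, the leading-strand polymerase, was higher in KO (0.178), and the helicase subunits MCM5 (-0.169) and CDC45 (-0.138) and the kinase gene CDC7 (-0.160) were lower. RFC1 +1013, in the gene for the large subunit of the clamp loader, had 0.839 and 0.928 in KO and 0.0389 and 0.0415 in WT.

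Kinetochore and spindle pole body genes had 12 sites higher (11.7%) and 24 lower (23.3%) of 103, with 0 of 7 genes past the threshold. MPC54 +1605, in a gene of the meiotic spindle pole plaque, and DUO1 +977, of the DASH complex, were higher in KO by 0.791 and 0.771, and NUF2 +898 was lower by 0.736. Microtubule and motor genes had 20 sites higher (20.4%) and 16 lower (16.3%) of 98. NUM1 +7354, in the gene for the cortical anchor of dynein, had 0.867 and 0.781 in KO and 0.0330 and 0.0149 in WT. The kinesin partner CIK1 averaged 0.207 and 0.240 in KO and 0.443 and 0.424 in WT (-0.210), while the dynactin subunit JNM1 was higher in KO (0.165). The call of MPC54 +1605 was lost without WT IP replicate 1, and that of NUF2 +898 without either KO IP replicate.

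Chromatin remodelling genes had 19 sites higher (15.3%) and 15 lower (12.1%) of 124. SNF2 +4603, in the gene for the SWI/SNF ATPase, had 0.956 and 0.967 in KO and 0.0410 and 0.135 in WT (0.873 ± 0.0439). SAGA and Mediator genes had 13 higher and 12 lower of 79, with SPT20 +1804 and MED4 +1059 higher in KO by 0.866 and 0.859. SRB4 +2026 was lower in KO by 0.593, a call lost without any 1 of the 4 libraries. RNA polymerase genes had 8 higher and 13 lower of 61. RPB2 +3781, in the gene for the second largest subunit of RNA polymerase II, had 0.912 and 0.928 in KO and 0.0753 and 0.0879 in WT. RPC37 +272 and RPA34 +543 were each lower in KO by 0.590. The call of RPC37 +272 was lost without WT IP replicate 1, and that of RPA34 +543 without any 1 of the 4 libraries. Spliceosome genes had 13 higher and 19 lower of 100, and in the gene fit MUD2, of the commitment complex, averaged 0.611 and 0.635 in KO and 0.842 and 0.823 in WT (-0.210 ± 0.0224).

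Vesicle coat and exocyst genes had 15 sites higher (12.8%) and 12 lower (10.3%) of 117. By 0.5 or more 7 were higher and 0 lower, beside 5.07% and 2.76% of all tested sites. SEC27 +3036, in the gene for a coatomer subunit, had 0.882 and 0.800 in KO and 0.0196 and 0.0114 in WT, and RET3, another coatomer subunit, was higher in its mean (0.207 ± 0.0228). Genes of the vacuolar ATPase, the proton pump of the vacuole, had 16 higher (19.3%) and 12 lower (14.5%) of 83. VMA6 +175 had 0.907 and 0.924 in KO and 0.223 and 0.169 in WT. VMA10 +734 and VMA1 +1850 were higher in KO by 0.673 and 0.642, while VMA8 was lower in its mean (-0.168).

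Trehalose and glycogen genes, which build and use the storage sugars of starved cells, had 12 sites higher (8.70%) and 30 lower (21.7%) of 138, with a median of -0.0420. In the gene fit 6 of 13 were lower in KO and 0 higher, beside 26.4% and 18.5% over all genes. GPH1, the glycogen phosphorylase, averaged 0.305 and 0.286 in KO and 0.485 and 0.446 in WT over 12 sites (-0.170 ± 0.0236), and GSY1 is described above. GSY2 (-0.164), TPS2 (-0.134), PGM2 (-0.112) and GLG2 (-0.0645) were lower too, and each of these 4 lost its call under at least 1 alternative. Against the mean of its gene, GPH1 +1497 was higher in KO, with 0.875 and 0.938 in KO and 0.212 and 0.179 in WT.

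Fatty acid and phospholipid genes had 18 sites higher (10.8%) and 32 lower (19.3%) of 166. FAS2 +5871, in the gene for the alpha subunit of fatty acid synthase, had 0.837 and 0.896 in KO and 0.0475 and 0.0380 in WT (0.824 ± 0.0345). OLE1 +1792, in the gene for the fatty acid desaturase, was higher in KO by 0.686. Peroxisome and beta-oxidation genes had 24 higher (15.1%) and 20 lower (12.6%) of 159, and in the gene fit 5 of 12 were higher and 2 lower, beside 18.5% and 26.4% over all genes. FAA2 +2234, in a gene for an acyl-CoA synthetase, had 0.112 and 0.128 in KO and 0.929 and 0.952 in WT (-0.820 ± 0.0285), although the mean of FAA2 over 6 sites was higher in KO (0.0730), a call lost without any 1 of the 4 libraries. Mitochondrial import genes had 7 higher and 15 lower of 79, and TIM50 +1356, of the inner membrane translocase, had 0.819 and 0.806 in KO and 0.0189 and 0.0248 in WT. TIM21 +971 was lower in KO by 0.576, a call lost without any 1 of the 4 libraries.

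Amino acid synthesis genes had 27 sites higher (14.4%) and 38 lower (20.2%) of 188, with 5 genes higher and 7 lower of 18 fitted (18.5% and 26.4% over all genes). MET3 +1776, in the gene for ATP sulfurylase, had 0.937 and 0.890 in KO and 0.136 and 0.115 in WT (0.788 ± 0.0326). ARG4 +1592 and ILV1 +749 were higher in KO by 0.773 and 0.726. TRP2, of tryptophan synthesis, averaged 0.359 and 0.324 in KO and 0.543 and 0.608 in WT (-0.234 ± 0.0280). Nutrient permeases had 9 higher and 16 lower of 83. GAP1 +429, in the gene for the general amino acid permease, had 0.736 and 0.776 in KO and 0.0232 and 0.0475 in WT, and the ATO2 mean was lower in KO (-0.155); HXT7 (-0.153) is nearly identical to HXT6, so its reads are uncertain.

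Genes of the Snf1 and PKA kinase pathways, which answer to glucose, had 15 sites higher (9.93%) and 29 lower (19.2%) of 151. REG1 +3019, in the gene for the Glc7 subunit that acts on Snf1, had 0.841 and 0.847 in KO and 0.106 and 0.0836 in WT (0.749 ± 0.0279). SIP4, a transcription factor of gluconeogenesis, was lower in KO over 21 sites (-0.153 ± 0.0217), with 8 sites lower and 2 higher. YAK1, a kinase opposed to PKA, was lower as well (-0.171). Cell wall genes had 17 higher (13.4%) and 26 lower (20.5%) of 127. FKS1 +5699, in the gene for the glucan synthase, had 0.909 and 0.972 in KO and 0.0749 and 0.0664 in WT, and CHS5, of chitin synthase export, had a lower mean in KO (-0.221 ± 0.0258).

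**Figure D5:**
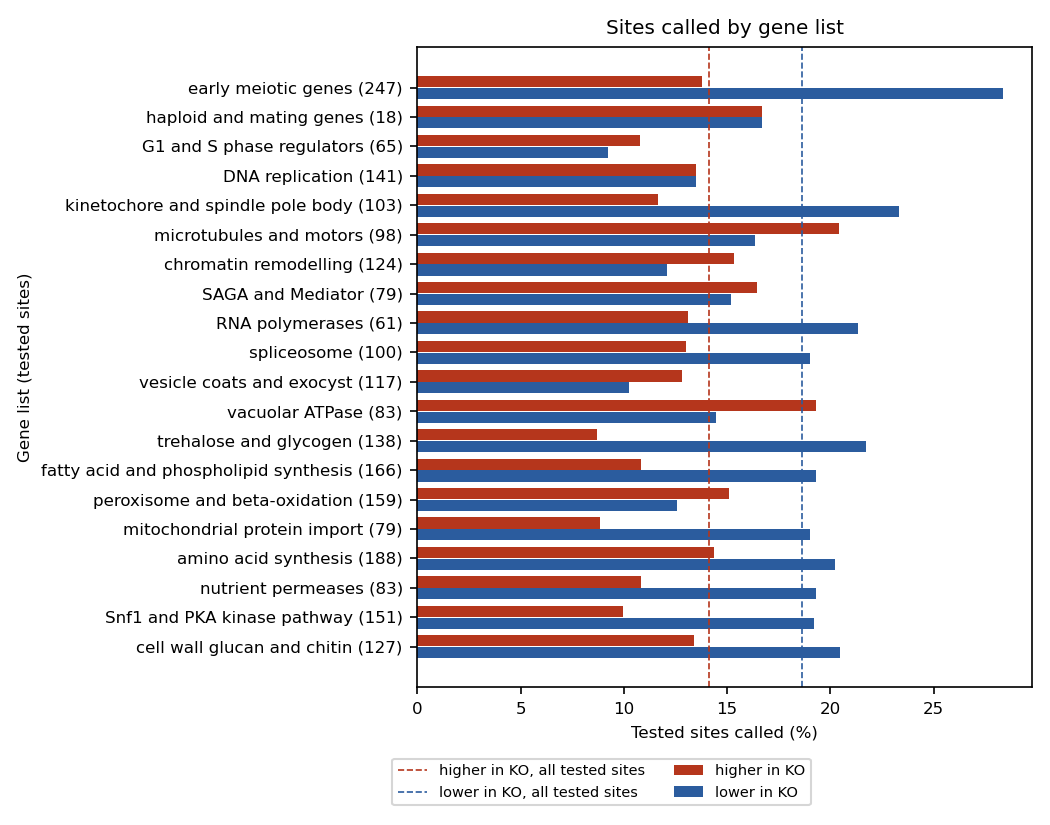
Percent of tested sites higher (red) and lower (blue) in KO for each of 20 gene lists, with the number of tested sites in brackets; dashed lines mark 14.1% and 18.6% over all tested sites. Early meiotic genes stand at 13.8% and 28.3%, and G1 and S phase regulators at 10.8% and 9.23%.

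The genotype difference in IP was set against that in input at the 17374 sites measured in all 8 libraries. By the interaction, (KO IP minus KO input) minus (WT IP minus WT input), 1345 sites passed the threshold (7.74%): 748 sites had a larger KO minus WT in IP (4.31%) and 597 a smaller one (3.44%). The fit treated the 8 libraries as independent. With the replicate number as a block the counts were 482 and 272, and with IP and input of the same genotype and number as a block they were 0 and 0 (lowest limma adjusted p 0.0693, 4095 sites at an unadjusted p under 0.05). The labels do not say that IP and input of the same number came from 1 culture, and their replicate differences correlated at 0.0510 in KO and 0.0784 in WT. VMA1 +1850 differed by 0.642 in IP and -0.0376 in input (0.679 ± 0.0439, limma adjusted p = 0.00431). SPO22 +2665 differed by 0.793 in IP and 0.121 in input (0.672 ± 0.0596), and HFM1 +3881 by 0.912 in IP and 0.239 in input (0.673 ± 0.114). In the other direction GSY2 +2147 differed by -0.629 in IP and -0.0951 in input (-0.534 ± 0.0670), although its IP difference itself was not past the threshold without WT IP replicate 1. Without KO input replicate 1 the counts were 23 and 6, and without KO input replicate 2 they were 41 and 9, so most of these calls depended on the presence of both KO input libraries; VMA1 +1850 remained past the threshold in both cases.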

How the data were processed

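The authors deposited 1 table with a normalized cleavage efficiency, a fraction, per ACA site for the 8 libraries; per the labels' protocols the libraries came from RNA extracted with the MasterPure kit, and per the submitters' processing notes the tools included STAR 2.5.3a and bedtools 2.26.0, whose roles are not stated. The sources used here do not give the formula, the normalization, any minimum depth or the build. Depth is unknown, and intervals that need it were not computed.

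From 77601 lines, 1 was kept for each of 76330 positions (the line with the most measured IP values, then file order). Groups came from the labels. Locus names were matched to R64 gene symbols, for names only, and 5699 of 6104 models matched. limma 3.58.1 (R 4.3.3) was run on the fraction at sites measured in all 4 IP libraries, with 2 residual degrees of freedom and an empirical Bayes prior (1.68 degrees of freedom, SD 0.0393). Tests were two-sided, with Benjamini-Hochberg adjustment over the 19517 sites and a threshold of 0.05. A gene's mean over at least 5 tested sites was fitted in the same way (prior of 5.87 degrees of freedom, SD 0.0243), and the interaction was fitted over all 8 libraries. All adjusted p-values are limma's. Summaries and figures used pandas 2.3.3 and matplotlib 3.10.9.

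Named sites were the 12 higher and 8 lower in KO with the largest difference among sites past the threshold, with groups that did not overlap and no IP value at 0.99 or above, at most 1 per gene. The same rule gave 8 and 4 among sites lacking an input value. Up to 3 sites per gene list were taken by that rule without the condition that the groups did not overlap. Also named were the 6 genes with the largest rise and the 6 with the largest fall of the mean, the 4 genes with the most differences of 0.5 or more each way, and the 6 opposite pairs with the largest smaller difference. Means of list genes that the rule does not cover, sites described along a gene and LYS2 +4359 were chosen after their values were seen. The members, the 20 gene lists and the rules were chosen with earlier results of these data known.

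Alternatives were median centring, a logit scale (offset 0.01), a mean of at least 0.1, values in at least 3 of 4 libraries, quantile normalization, no value at 0.99 or above, positions listed once, a robust and trended prior, all 8 libraries, an adjusted p of 0.01, the replicate number as a block, and each library left out; the 4-library fit over sites measured in all 8, and for the interaction a block of IP and input libraries of the same genotype and number, were added after the data were seen. Replicate numbers were not taken to pair libraries, since the deviations of same-numbered KO and WT libraries correlated at -0.0181. On simulated data with 6000 of 19517 sites changed, the share of changed sites recovered by the site fit was 24.3% for a change of 0.1, 53.8% for 0.2, 80.7% for 0.4 and 92.5% for 0.6, with 4.73% of calls false. With 200 changed sites it recovered 0% of each size. Only sites with a mean above the middle of the scale were changed, always by lowering WT. Values were normal and not held to the scale, and the spreads were shuffled over sites, so these shares need not hold for the real data.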

Additional observations from a re-analysis of the deposited data

Results flagged for a closer look

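At 25 of the 63 ranked or listed sites with all 8 values, the KO minus WT difference in IP differed from that in input by the interaction test (limma, adjusted p of 0.05), 39.7% beside 7.74% of all 17374 sites. The 63 were chosen for a large difference in IP, which is a term of the interaction, so their share is no result. Of the 25, 16 passed with the replicate number as a block, 9 on the logit scale and 0 with IP and input of the same genotype and number as a block, and VMA1 +1850 alone passed when either KO input library was left out, 1 site in each case. The values below are the difference in IP minus the difference in input.

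A positive difference in IP that was smaller in input gave 0.679 at VMA1 +1850, 0.673 at HFM1 +3881, 0.672 at SPO22 +2665, 0.637 at PHO89 +1869 and 0.605 at CUS1 +1102. At these 5 sites KO minus WT was 0.642, 0.912, 0.793, 0.714 and 0.721 in IP, against -0.0376, 0.239, 0.121, 0.0777 and 0.115 in input. PEX15 +1348 (0.483), INO80 +4513 (0.482), VMA6 +175 (0.438), GAP1 +429 (0.419), FAA4 +1950 (0.405), MET3 +1776 (0.377), SLT2 +1594 (0.352), FAS2 +5871 (0.322) and SSC1 +2036 (0.317) followed. The smallest were at ARG4 +1592 (0.2995), RET3 +497 (0.277), RPB2 +3781 (0.222), RPN9 +616 (0.195) and SSD1 +4010 (0.153), and RPN9 +616 and SSD1 +4010 passed in 0 of the 8 leave-outs. At SSD1 +4010 the efficiency was 0.962 in KO IP, 0.0514 in WT IP, 0.938 in KO input and 0.180 in WT input.

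A negative difference in IP that was nearer 0 in input gave -0.545 at RRP14 +989, -0.534 at GSY2 +2147, -0.460 at AIP5 +1387, -0.438 at CRC1 +414, -0.270 at SRM1 +1499 and -0.249 at FAA2 +2234. At CRC1 +414 the efficiency was 0.0292 in KO IP, 0.931 in WT IP, 0.469 in KO input and 0.933 in WT input.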

How the results depend on the processing

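Leaving out 1 library gave 0 to 1265 sites higher and 0 to 1349 lower in KO, 0 to 826 and 0 to 389 with a difference of 0.5 or more, 196 to 237 genes higher and 282 to 339 lower, and by the interaction 23 to 721 sites larger and 6 to 556 smaller in IP. The 0 came without WT IP replicate 2 (0.0541 the lowest limma adjusted p, 7374 sites at an unadjusted p under 0.05), and without WT IP replicate 1 there were 232 sites lower by 0.5 or more. Of 86 ranked or listed sites, 67 passed without each of the other 3 libraries in turn. An adjusted p of 0.01 left 1241 sites higher and 944 lower in KO, 313 of them lower by 0.5 or more. Sites measured in 3 of 4 libraries raised those higher by 0.5 or more to 1498. In these counts the limit of 0.5 was applied to the difference in the fit of all 4 IP libraries. For sites absent from that fit, the difference in the alternative fit was used. Requiring 10 sites per gene gave 79 genes higher and 136 lower (fewer genes were tested), the logit scale 195 and 287, and no value at 0.99 or above 196 higher. The interaction gave 171 and 89 on the logit scale. With the replicate number as a block it gave 482 and 272 (0 and 0 with IP and input of the same genotype and number as a block), and the per-site counts were 2272 and 2847; the numbers mark no known pairing. The last of 10 parts had 20.8% of sites higher in KO, and 7.08% in the last of 5 parts were higher by 0.5 or more. Around sites higher by 0.3 or more, 34.7% of neighbours 51 to 100 nt upstream and 24.9% downstream were lower. With the median over sites in place of the mean, 6 list genes changed sign, none past the threshold by the median: REC104 (0.0264), RFC1 (-0.106), PSD1 (-0.0920), ARG4 (-0.0108), SIP1 (-0.0274) and IGO1 (0.0489). Where fewer genes or libraries do not account for a change, the cause was not tested. Of 150 described sites, none changed sign, and 144 to 150 stayed past the threshold on the logit scale, with median centring and with quantile normalization. With the replicate number as a block 136 stayed past it, and 108 passed a limma adjusted p of 0.01. Many of the 150 calls were lost when 1 library was left out, and all of them without WT IP replicate 2. Sites at the ceiling in both replicates of a group show almost no replicate spread.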
